A study of Homo sapiens with 28 samples.

Results

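Aminoacyl-tRNA synthetases are the enzymes that attach each amino acid to its own transfer RNA, and so supply ribosomes with their substrates. In human cells one set works in the cytosol and a second set, also encoded in the nucleus, works in mitochondria and mostly carries a symbol ending in 2. In many cell types the transcription factor ATF4, whose translation increases when the kinase PERK phosphorylates the initiation factor eIF2α during endoplasmic reticulum stress, raises cytosolic synthetase genes together with amino acid transport and synthesis genes. Described here are 39 genes, taken by symbol from deposited exon-count tables of 25369 genes. They are 20 cytosolic enzymes or enzyme subunits, 16 mitochondrial enzymes, and 3 non-enzymatic scaffold genes of the multi-synthetase complex (AIMP1, AIMP2 and EEF1E1). GARS and KARS were counted as cytosolic, although each of those genes is known to encode both the cytosolic and the mitochondrial form of its enzyme.

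The RNA came from LNCaP cells, an established human line derived from a metastasis of prostate cancer, at passages 10 to 15, in 7 groups of 4 libraries made from 4 independent experiments. All 7 groups were transfected with an siRNA, and harvest followed 2 days of transfection and 18 h of treatment. The groups treated with 2.5 µg/mL tunicamycin (TM), which blocks N-linked glycosylation and so causes endoplasmic reticulum stress, carried 1 of 5 siRNAs. The groups TM siATF4-2 and TM siATF4-3 received separate siRNAs against ATF4, the groups TM siPERK-1 and TM siPERK-3 received separate siRNAs against PERK, whose gene symbol is EIF2AK3, and TM siCtrl received a non-targeting siRNA. TM PERKi siCtrl received the non-targeting siRNA, tunicamycin and 100 nM of the PERK inhibitor GSK2606414. DMSO siCtrl received the non-targeting siRNA and the solvent alone. Each result is limited to this 1 line and this 1 time.

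Library totals ran between 10794637 and 17253801 counts. The targeted genes matched the labels: ATF4 averaged 237 ± 82.4 normalised counts (CPM, which scales each library to a common size) in TM siATF4-2 and 114 ± 19 CPM in TM siATF4-3, against 1511 ± 37.4 CPM in TM siCtrl and 605 ± 85.3 CPM in DMSO siCtrl (SD, n = 4 each, as for every ± on CPM that follows). The 4 ATF4 values of TM siATF4-2 were 221, 194, 177 and 358 CPM, so replicate 4 kept the most ATF4 RNA. EIF2AK3 averaged 24.6 ± 4 CPM in TM siPERK-1 and 21.5 ± 2.14 CPM in TM siPERK-3, against 89.2 ± 6.51 CPM in TM siCtrl and 30.2 ± 0.742 CPM in DMSO siCtrl. Of the EIF2AK3 exon bases, 16.8% overlap a gene on the other strand. All 9 LNCaP and luminal prostate markers were detected, with a summed level of 3351 to 3669 CPM in TM siCtrl and 6173 to 7260 CPM in DMSO siCtrl. The basal epithelial marker TP63 and the fibroblast marker COL1A2 had 0 counts in all 28 libraries, but other genes of their lists were detected. The basal list of 3 genes summed to 0.178 to 0.398 CPM in TM siCtrl and 1.04 to 1.49 CPM in DMSO siCtrl, mostly KRT14. The leukocyte list of 3 genes summed to 4.7 to 5.25 CPM in TM siCtrl and 3.84 to 6.18 CPM in DMSO siCtrl, nearly all of it CD68. The fibroblast list of 4 genes summed to 32.5 to 39.4 CPM in TM siCtrl and 17.7 to 21.9 CPM in DMSO siCtrl, nearly all of it COL1A1. In the ATF4 siRNA groups that list summed to 14.1 to 23.9 CPM, and its part in the results was not tested.

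All 39 genes passed the filter on low counts, and the lowest count of any of them in any library was 85, for PARS2. In DMSO siCtrl the cytosolic genes were the more abundant class per length of exon, with a median of 76.5 CPM per kilobase against 15.9 CPM per kilobase for the mitochondrial genes. AARS, the alanine enzyme, was highest at 171.5 ± 10.7 CPM per kilobase, and CARS, the cysteine enzyme, was the lowest cytosolic gene at 29.6 ± 3.23 CPM per kilobase. IARS2, the mitochondrial isoleucine enzyme, stood apart from its class at 82.1 ± 3.02 CPM per kilobase, while PARS2, the mitochondrial proline enzyme, had 4.49 ± 0.546 CPM per kilobase. In TM siCtrl the class medians were 123.5 CPM per kilobase for the cytosolic genes and 13.5 CPM per kilobase for the mitochondrial genes.

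Tunicamycin raised most of the cytosolic genes and lowered most of the mitochondrial genes. In TM siCtrl against DMSO siCtrl, 12 of the 20 cytosolic genes rose and 5 fell, whereas 12 of the 16 mitochondrial genes fell and EARS2 alone among them rose, in edgeR's quasi-likelihood test with Benjamini-Hochberg adjustment over 14314 genes at an adjusted p of 0.05. Of all genes tested in this comparison, 69.0% were called, 34.3% as higher and 34.7% as lower, so a call by itself is common here. The median log2 change was 0.56 for the cytosolic genes, -0.33 for the mitochondrial genes and 0.01 for all genes tested. Without the dual genes KARS and GARS, 11 cytosolic genes of 18 rose and 5 fell. In these bulk libraries fewer cells of a type and less RNA per cell cannot be told apart.

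WARS, which charges tryptophan tRNA and is also known as an interferon-induced gene, had the largest change of the 39 (hg19 chr14:100800125-100842680, minus strand). It had 670.2, 689.8, 714 and 735 CPM in TM siCtrl, against 161, 159, 166.5 and 153 CPM in DMSO siCtrl. The groups lay far apart, a log2 change of 2.14 ± 0.05, adjusted p = 1.52e-31 (SE, as for every ± on a log2 change that follows; adjusted p-values are edgeR's). SARS, the serine enzyme (hg19 chr1:109756515-109780804, plus strand), had 714, 728, 759 and 738 CPM in TM siCtrl, against 277.5, 266.5, 279.6 and 291 CPM in DMSO siCtrl. The lowest tunicamycin library was again well above the highest solvent library (1.40 ± 0.06, adjusted p = 1.52e-22). GARS, the glycine enzyme of both compartments (hg19 chr7:30634181-30673648, plus strand), had 973, 1034, 1030.0 and 986 CPM in TM siCtrl, against 362, 371, 395 and 423 CPM in DMSO siCtrl, a rise of 1.38 ± 0.10, adjusted p = 1.46e-11. It became the most abundant of the 39 genes per length, at 366 ± 11.2 CPM per kilobase in TM siCtrl.

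CARS (hg19 chr11:3022152-3078681, minus strand) had 177, 164, 169.7 and 166 CPM in TM siCtrl, against 74, 79.6, 86.1 and 95.2 CPM in DMSO siCtrl (1.01 ± 0.07, adjusted p = 3.37e-14). AARS (hg19 chr16:70286297-70323412, minus strand) had 1154, 1135, 1159 and 1054 CPM in TM siCtrl, against 552, 561, 554 and 627 CPM in DMSO siCtrl (0.97 ± 0.05, adjusted p = 1.57e-19). Neither gene's groups overlapped. The other 7 genes that rose were IARS, EPRS, YARS, MARS, NARS, TARS and LARS, with log2 changes between 0.18 for the leucine enzyme LARS and 0.87 for the isoleucine enzyme IARS. EPRS, the bifunctional enzyme for glutamate and proline, rose by 0.66 ± 0.05. The MARS exons share 68 bases with DDIT3 on the other strand, and the YARS exons share 248 bases with S100PBP, so a part of their counts could come from those genes if strand was ignored in counting.

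Both subunits of the phenylalanine enzyme were among the 5 cytosolic genes that fell. FARSB, its β subunit, had 82.9, 82.85, 86.55 and 85.9 CPM in TM siCtrl, against 137, 134.5, 155 and 160.2 CPM in DMSO siCtrl, with no overlap (-0.80 ± 0.06, adjusted p = 1.1e-14). FARSA, its α subunit, fell less (-0.22 ± 0.05, adjusted p = 0.000472). RARS for arginine fell by 0.41 ± 0.05, VARS for valine by 0.40 ± 0.08 and QARS for glutamine by 0.26 ± 0.05 on the log2 scale. VARS and VARS2 also have annotated exons on 6 and 5 alternative haplotypes of chromosome 6, so their counts depend on how reads with several placements were treated. The cytosolic genes not called were DARS for aspartate (-0.11), HARS for histidine (0.06) and KARS for lysine (-0.09). The DARS exons share 114 bases with LOC101928243 on the other strand, so its counts carry the same limit as those of MARS and YARS.

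**Figure D1:**
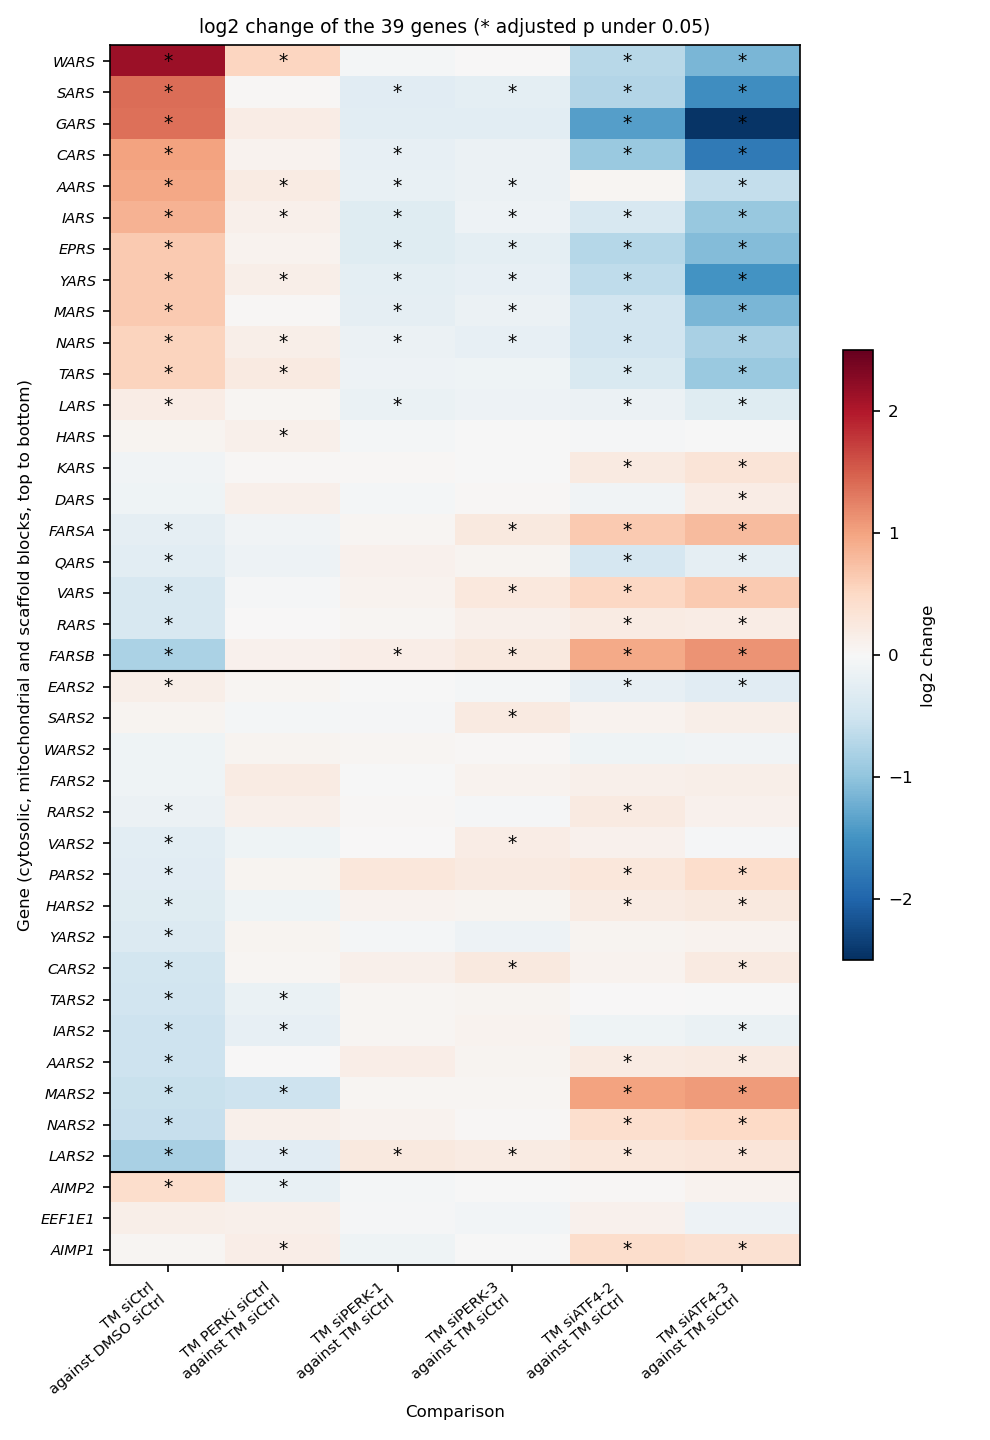
Log2 change of each of the 39 genes (rows, in blocks of cytosolic, mitochondrial and scaffold genes) in 6 comparisons (columns), with an asterisk where the adjusted p was under 0.05. In the TM siCtrl against DMSO siCtrl column most cytosolic genes are positive, up to 2.14 for WARS, and most mitochondrial genes negative, down to -0.81 for LARS2; the columns for the ATF4 siRNAs run down to -2.45 for GARS.

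**Figure D2:**
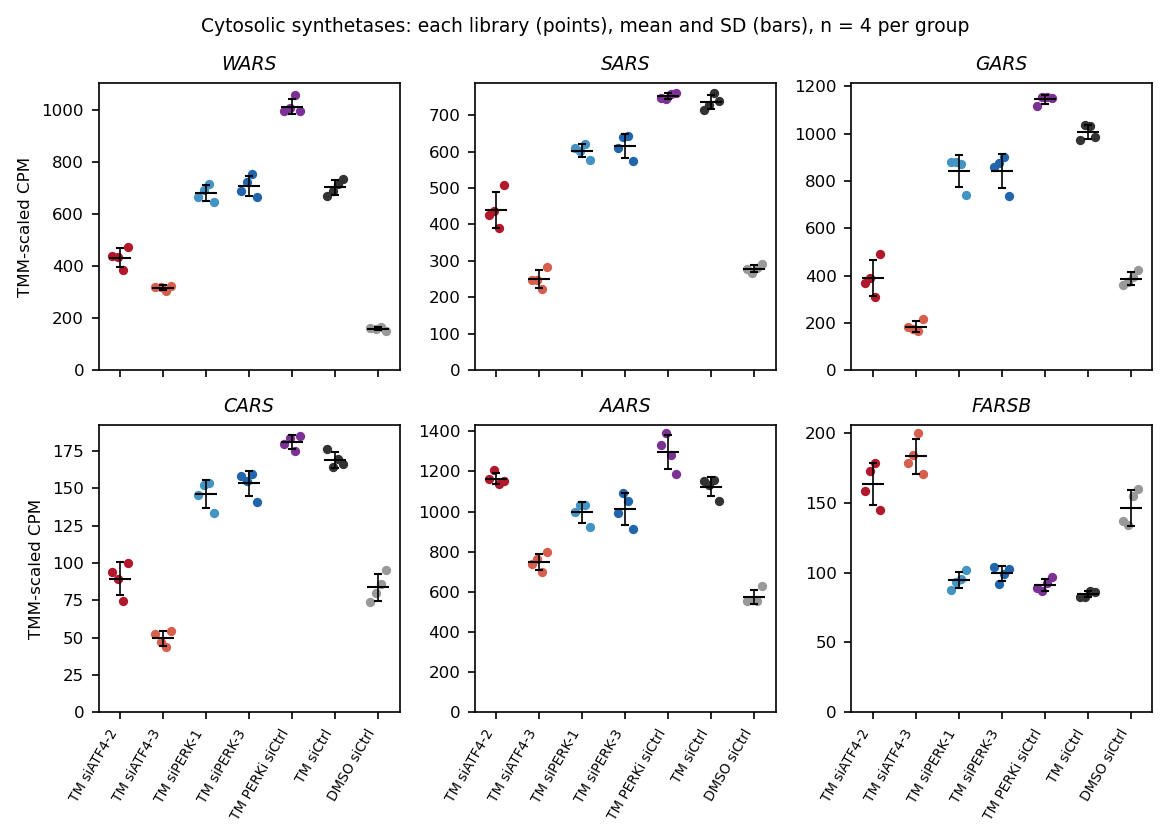
CPM of 6 cytosolic genes in each of the 28 libraries (points) by group, with the group mean and SD; each panel has its own linear axis. WARS, SARS, GARS and CARS are high in TM siCtrl against DMSO siCtrl and lower with either ATF4 siRNA than in TM siCtrl, AARS is lower than in TM siCtrl with siATF4-3 but not with siATF4-2, and FARSB is low in TM siCtrl and high in the ATF4 siRNA groups.

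The promoters of these genes differ in whether they hold the sequence that ATF4 heterodimers are known to bind, the C/EBP-ATF response element. RefSeq GRCh38.p14 gives a window of 300 bases around the start site, 250 before and 50 after, for 33 of the 39 genes: 16 cytosolic, 14 mitochondrial and 3 scaffold. No window was matched for DARS, LARS, VARS, YARS, AARS2 and VARS2. LARS and YARS, which rose with tunicamycin, were therefore not searched. The core TGATGNAA, searched on both strands, was in 6 of the 16 cytosolic windows, 1 of the 14 mitochondrial windows and 0 of the 3 scaffold windows, against 3.62% of 35116 windows of all genes. The endoplasmic reticulum stress response element, which is bound by ATF6 with NF-Y, was in none of the 33 windows on either strand, against 0.0769% of all windows. The 7 stretches that hold the core are shown because they include 6 of the 12 cytosolic genes that rose with tunicamycin; each is 60 bases, 5′ to 3′ on the strand of its gene, with the core in capitals as it reads on that strand.
AARS (chr16:70289660-70289719, minus strand): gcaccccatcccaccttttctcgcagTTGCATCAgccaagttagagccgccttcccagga
CARS (chr11:3057394-3057453, minus strand): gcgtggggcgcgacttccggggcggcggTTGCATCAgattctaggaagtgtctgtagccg
IARS (chr9:92293677-92293736, minus strand): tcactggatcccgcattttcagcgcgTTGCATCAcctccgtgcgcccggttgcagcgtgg
MARS (chr12:57488038-57488097, plus strand): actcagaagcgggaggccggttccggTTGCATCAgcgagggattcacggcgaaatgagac
NARS (chr18:57621807-57621866, minus strand): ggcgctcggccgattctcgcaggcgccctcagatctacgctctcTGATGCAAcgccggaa
TARS (chr5:33440935-33440994, plus strand): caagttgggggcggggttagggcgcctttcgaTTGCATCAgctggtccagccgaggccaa
YARS2 (chr12:32756061-32756120, minus strand): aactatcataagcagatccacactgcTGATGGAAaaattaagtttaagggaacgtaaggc

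The 6 cytosolic stretches all hold the version TGATGCAA, read as TTGCATCA in AARS, CARS, IARS, MARS and TARS and directly in NARS. YARS2, a mitochondrial gene, holds TGATGGAA instead. Relative to the RefSeq start site the core begins at position -13 in IARS, -4 in MARS, -2 in CARS, 3 in TARS and 15 in NARS, and at -187 in AARS and -197 in YARS2. Of the 10 cytosolic genes whose windows hold no such core, WARS, SARS, GARS and EPRS also rose with tunicamycin. FARSA, FARSB, RARS, QARS, HARS and KARS make up the rest of those 10, and none of them rose. A match is a description of the letters in the window, and a window without one says nothing of binding elsewhere.

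Among the mitochondrial genes the fall with tunicamycin was led by LARS2, the leucine enzyme (hg19 chr3:45430075-45590328, plus strand). LARS2 had 63, 64.1, 62.4 and 56.6 CPM in TM siCtrl, against 112, 112, 107 and 101 CPM in DMSO siCtrl (-0.81 ± 0.05, adjusted p = 1.34e-17). NARS2, the asparagine enzyme (hg19 chr11:78147007-78285909, minus strand), had 31.3, 32, 28.75 and 29.15 CPM in TM siCtrl, against 48.1, 47.4, 40.5 and 43.7 CPM in DMSO siCtrl (-0.57 ± 0.06, adjusted p = 2.58e-10). Both genes' groups were separate. MARS2, the methionine enzyme (hg19 chr2:198570028-198573114, plus strand), had 18, 18.4, 19.9 and 19.6 CPM in TM siCtrl, against 28.2, 27.5, 29.4 and 27.2 CPM in DMSO siCtrl (-0.57 ± 0.07, adjusted p = 5.22e-09). AARS2, the alanine enzyme (hg19 chr6:44266463-44281063, minus strand), had 28.1, 29.7, 30.9 and 28.75 CPM in TM siCtrl, against 41.8, 42.5, 41.9 and 42.5 CPM in DMSO siCtrl (-0.52 ± 0.07, adjusted p = 6.71e-09).

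These 4 genes had no library of one group inside the range of the other. The other 8 mitochondrial genes that fell were IARS2, TARS2, CARS2, YARS2, HARS2, PARS2, VARS2 and RARS2, with log2 changes between -0.52 and -0.15. The smallest of these, RARS2 for arginine, was near the threshold (adjusted p = 0.0469) and lost its call in 11 of the 15 alternative settings. PARS2 lost its call without TM siCtrl replicate 2, DMSO siCtrl replicate 3 or DMSO siCtrl replicate 4. EARS2, which charges mitochondrial glutamate tRNA and by mischarging starts the route to mitochondrial glutaminyl-tRNA, rose (0.14 ± 0.04, adjusted p = 0.00428). FARS2 (-0.10), WARS2 (-0.10) and SARS2 (0.07) were not called. HARS and HARS2 stand head to head and share 302 exon bases, 13.1% of the HARS and 11.6% of the HARS2 exon length, so their counts may not be fully separate. The SARS2 exons share 189 bases, 8.85% of their length, with MRPS12 on the other strand. A part of the SARS2 counts could come from MRPS12 if strand was ignored in counting.

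**Figure D3:**
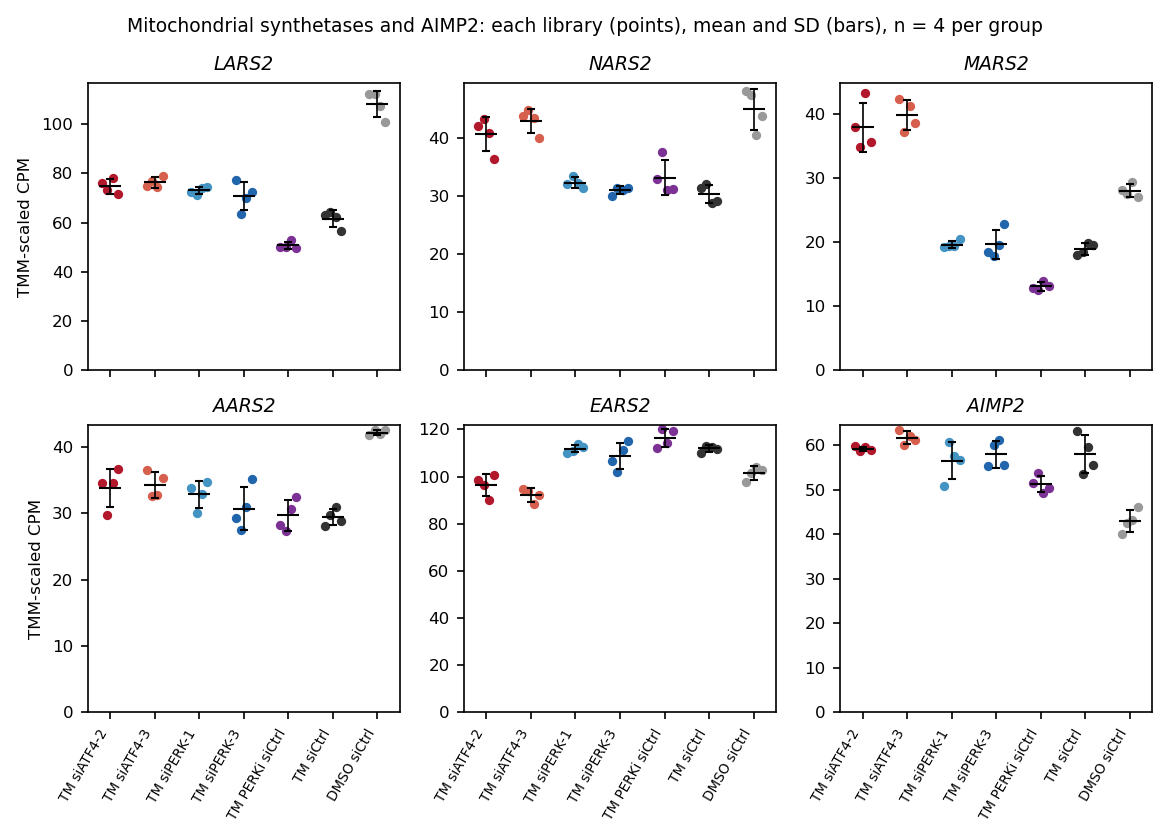
CPM of 5 mitochondrial genes and of the scaffold gene AIMP2 in each of the 28 libraries (points) by group, with the group mean and SD; each panel has its own linear axis. LARS2, NARS2, MARS2 and AARS2 are lower in TM siCtrl than in DMSO siCtrl, MARS2 reaches 43.35 CPM in a TM siATF4-2 library, and the AIMP2 mean is higher in every tunicamycin group than in DMSO siCtrl.

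Of the scaffold genes, AIMP2 rose with tunicamycin and the other two were not called. AIMP2 had 63.2, 53.6, 59.7 and 55.5 CPM in TM siCtrl, against 40.01, 42.5, 43.3 and 46.1 CPM in DMSO siCtrl, without overlap (0.43 ± 0.06, adjusted p = 9.46e-09). AIMP1, which is also the precursor of a secreted cytokine, had 65.6, 74.5, 70.3 and 74 CPM in TM siCtrl, against 71.3, 63.8, 69.5 and 68.4 CPM in DMSO siCtrl (0.06 ± 0.06, adjusted p = 0.393). EEF1E1, also known as AIMP3, had 15.4, 17.8, 18.4 and 19.99 CPM in TM siCtrl, against 15.6, 13.8, 16.9 and 18 CPM in DMSO siCtrl (0.15 ± 0.09, adjusted p = 0.149). The ranges of TM siCtrl and DMSO siCtrl overlapped for AIMP1 and EEF1E1. Overlapping annotation touches all 3: 43.6% of the AIMP2 exon bases are shared with EIF2AK1 on the other strand, 11.8% of those of AIMP1 with TBCK on the other strand, and 36.8% of those of EEF1E1 with a read-through gene on the same strand.

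Summed over the class, cytosolic synthetase RNA amounted to 8594, 8866, 8912 and 8678 CPM in TM siCtrl, against 5300, 5338, 5395 and 5547 CPM in DMSO siCtrl. The mitochondrial sum was 763, 779.5, 769 and 768 CPM in TM siCtrl, against 1010, 1014, 991 and 978 CPM in DMSO siCtrl. The ratio of the sums was 11.4 ± 0.142 in TM siCtrl and 5.41 ± 0.198 in DMSO siCtrl (SD, n = 4 each). Within a library, each mitochondrial enzyme was also set against the cytosolic enzyme for the same amino acid, as the log2 ratio of their counts in 16 pairs. EPRS stands in the pairs of both EARS2 and PARS2, so the ratios are not all independent. For phenylalanine only FARSA was paired, and FARSB, which fell more than FARSA with tunicamycin, was left out. The 2-sided exact permutation test of 4 against 4 libraries cannot go below 0.0286, and p-values were adjusted over the 16 pairs of each comparison. A pair at that floor passes the adjusted threshold only if enough other pairs of its comparison are at the floor too. A comparison with only a few called ratios could therefore not occur. With tunicamycin, 13 ratios rose and 2 fell, with a median difference of 1.02.

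WARS over WARS2 had the largest difference, a mean log2 ratio of 4.69 in TM siCtrl and 2.45 in DMSO siCtrl (2-sided exact permutation p = 0.0286, n = 4 each). VARS over VARS2 (-0.15) and RARS over RARS2 (-0.26, p = 0.0286 each by the same exact permutation test) were the ratios that fell. FARSA over FARS2 was not called, at 3.93 in TM siCtrl and 4.05 in DMSO siCtrl (exact permutation p = 0.0857, n = 4 each).

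**Figure D4:**
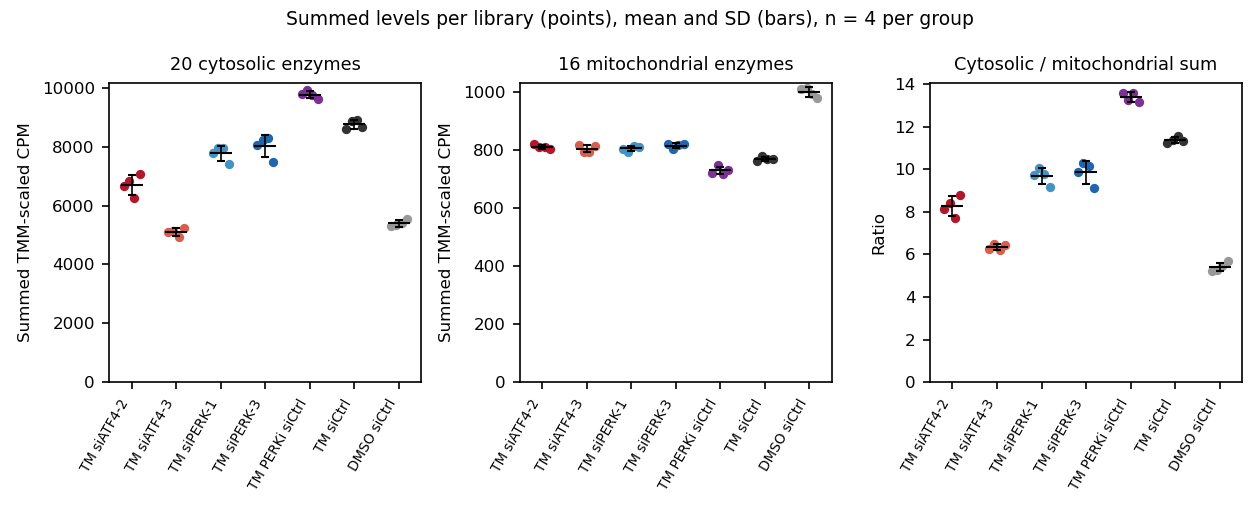
Summed CPM of the 20 cytosolic genes, of the 16 mitochondrial genes and the ratio of the sums in each library (points) by group, with the group mean and SD. The ratio averages 8.27 in TM siATF4-2, 6.36 in TM siATF4-3, 9.68 in TM siPERK-1, 9.85 in TM siPERK-3, 13.4 in TM PERKi siCtrl, 11.4 in TM siCtrl and 5.41 in DMSO siCtrl.

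The ATF4 siRNAs, in the presence of tunicamycin, lowered most cytosolic enzymes and raised several mitochondrial ones. The 4 TM siCtrl libraries stand on one side of this and every other siRNA or inhibitor comparison with TM siCtrl and on the opposite side of the tunicamycin comparison, so the signs in them are not independent. In TM siATF4-3 against TM siCtrl, 13 cytosolic genes fell and 6 rose, where 61.9% of all genes tested were called, 31.2% as higher and 30.7% as lower. In TM siATF4-2 against TM siCtrl, 12 cytosolic genes fell and 5 rose, where 55.6% of all genes tested were called, 28.4% as higher and 27.2% as lower. The median log2 change of the cytosolic genes was -0.70 with siATF4-3 and -0.39 with siATF4-2. For the mitochondrial genes it was 0.14 and 0.11, with 7 genes that rose under each siRNA, 2 that fell under siATF4-3 and 1 that fell under siATF4-2.

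GARS showed the largest fall. It had 184, 173, 165 and 215 CPM in TM siATF4-3 and 370.5, 391, 309 and 489 CPM in TM siATF4-2, against 973, 1034, 1030.0 and 986 CPM in TM siCtrl. All 8 siRNA libraries were below all 4 TM siCtrl libraries, with log2 changes of -2.45 ± 0.11, adjusted p = 1.32e-15 for siATF4-3 and -1.37 ± 0.10, adjusted p = 5.2e-11 for siATF4-2. The GARS levels with siATF4-3 were also under those of DMSO siCtrl, the lowest of which was 362.4 CPM. CARS had 52.5, 47.4, 43.5 and 54.5 CPM in TM siATF4-3 and 93.7, 89.5, 74.4 and 100.2 CPM in TM siATF4-2, against 177, 164, 169.7 and 166 CPM in TM siCtrl (-1.77 ± 0.08, adjusted p = 4.04e-19 for siATF4-3). SARS had 247, 248, 224 and 284 CPM in TM siATF4-3 and 425, 436, 389 and 509 CPM in TM siATF4-2, against 714, 728, 759 and 738 CPM in TM siCtrl (-1.55 ± 0.06, adjusted p = 1.56e-22 for siATF4-3). Neither CARS nor SARS had a siRNA library in the range of TM siCtrl.

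WARS, the gene with the largest response to tunicamycin, had 319, 321, 306 and 325 CPM in TM siATF4-3 and 438, 435.5, 383 and 475 CPM in TM siATF4-2 (-1.14 ± 0.05, adjusted p = 6.43e-22 for siATF4-3; -0.70 ± 0.05, adjusted p = 2.8e-15 for siATF4-2). Those levels remained above every DMSO siCtrl library, which reached 166.5 CPM at most. AARS parted the siRNAs: it had 738, 763, 699 and 797 CPM in TM siATF4-3 and 1164, 1205, 1137 and 1154 CPM in TM siATF4-2, against 1154, 1135, 1159 and 1054 CPM in TM siCtrl. The siATF4-2 libraries overlapped TM siCtrl (0.05 ± 0.05, adjusted p = 0.443), while the siATF4-3 libraries were all lower (-0.59 ± 0.05, adjusted p = 1.37e-12). The other cytosolic genes that fell with each siRNA were MARS, YARS, EPRS, IARS, NARS, TARS, LARS and QARS, with the LARS call for siATF4-2 lost without TM siATF4-2 replicate 3.

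FARSB led the cytosolic genes that rose with the ATF4 siRNAs. It had 178, 184, 200.1 and 171 CPM in TM siATF4-3 and 158, 173, 178 and 145 CPM in TM siATF4-2, against 82.9, 82.85, 86.55 and 85.9 CPM in TM siCtrl, with every siRNA library higher (1.12 ± 0.06, adjusted p = 1.9e-18 for siATF4-3; 0.95 ± 0.06, adjusted p = 5.96e-16 for siATF4-2). FARSA, VARS, RARS and KARS also rose with each siRNA, by log2 changes of 0.19 to 0.78 with siATF4-3. QARS fell, by log2 changes of -0.23 with siATF4-3 and -0.42 with siATF4-2, beside its -0.26 in TM siCtrl against DMSO siCtrl. DARS rose with siATF4-3 (0.18, not called without TM siCtrl replicate 4) and had -0.08 with siATF4-2.

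MARS2 had the largest rise among the mitochondrial genes, with 42.3, 37.2, 41.35 and 38.6 CPM in TM siATF4-3 and 38.1, 34.85, 43.35 and 35.7 CPM in TM siATF4-2, against 18, 18.4, 19.9 and 19.6 CPM in TM siCtrl. No siRNA library reached down to TM siCtrl, and the log2 changes were 1.07 ± 0.07, adjusted p = 3.08e-16 for siATF4-3 and 1.00 ± 0.07, adjusted p = 5.53e-15 for siATF4-2. All 8 libraries were also above the highest MARS2 level in DMSO siCtrl, 29.4 CPM. NARS2, PARS2, LARS2, HARS2 and AARS2 rose with each siRNA as well, NARS2 by 0.50 and LARS2 by 0.31 with siATF4-3. The PARS2 rise with siATF4-2 was lost in 6 settings: with upper-quartile scaling (adjusted p = 0.0806), with DESeq2 (0.0501), and without TM siCtrl replicate 2 or 3 or TM siATF4-2 replicate 2 or 3 (up to 0.152). That of AARS2 with siATF4-2 was lost without TM siATF4-2 replicate 4. CARS2 rose with siATF4-3 and RARS2 with siATF4-2, the RARS2 call being lost without TM siATF4-2 replicate 2. EARS2 fell with each (-0.28 with siATF4-3 and -0.21 with siATF4-2), and IARS2 fell with siATF4-3 (-0.17). Among the scaffold genes AIMP1 rose, with 94.5, 92.6, 99.1 and 83.9 CPM in TM siATF4-3 and 92.75, 104.5, 97.2 and 88.5 CPM in TM siATF4-2, against 65.6, 74.5, 70.3 and 74 CPM in TM siCtrl (0.38 ± 0.06, adjusted p = 7.04e-07 for siATF4-3).

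In the partner pairs, 13 of the 16 ratios fell and 2 rose with siATF4-3, with a median difference of -0.86, and 11 fell and 2 rose with siATF4-2, with a median difference of -0.47. MARS over MARS2 changed most, at a mean log2 ratio of 2.14 in TM siATF4-3 and 4.36 in TM siCtrl (2-sided exact permutation p = 0.0286, n = 4 each). FARSA over FARS2 and VARS over VARS2 were the ratios that rose with either siRNA, by 0.65 and 0.70 with siATF4-3. The cytosolic sums were 5117, 5138, 4937 and 5244 CPM in TM siATF4-3 and 6659, 6823, 6248 and 7078 CPM in TM siATF4-2, all below the lowest TM siCtrl sum. Replicate 4 of TM siATF4-2, which kept the most ATF4 RNA, also had the highest cytosolic sum of its group. Replicate 4 had the highest sum in TM siATF4-3 and DMSO siCtrl too, and the lowest in TM PERKi siCtrl and each PERK siRNA group. A link between ATF4 RNA and the sum within the group was not tested.

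**Figure D5:**
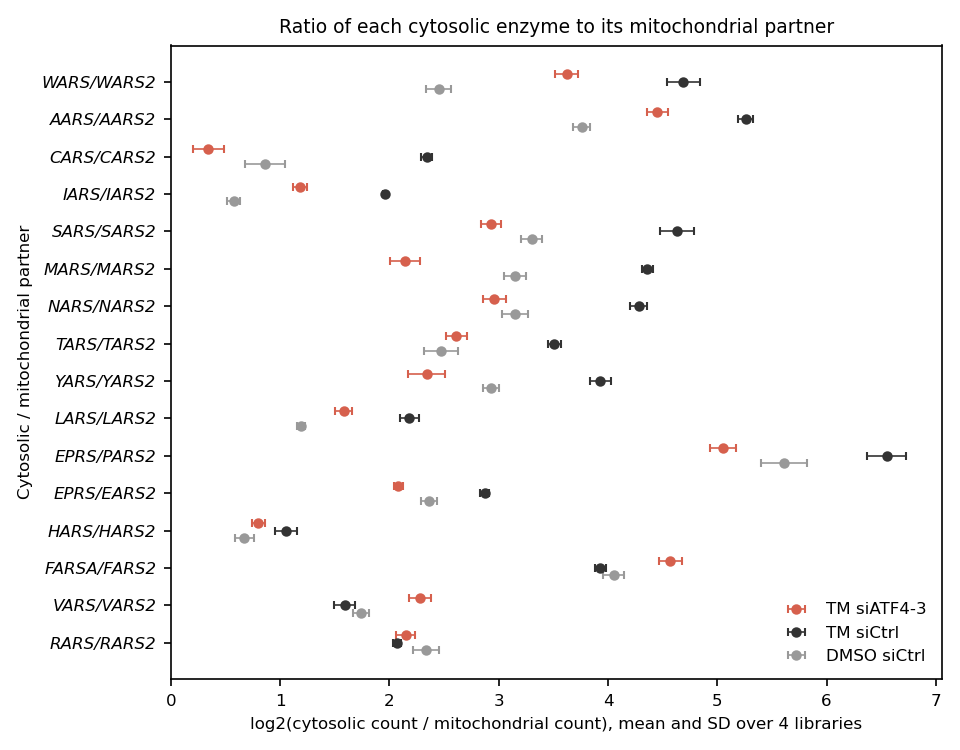
Mean and SD over 4 libraries of the log2 ratio of the cytosolic to the mitochondrial count for 16 pairs of enzymes, in TM siATF4-3, TM siCtrl and DMSO siCtrl. For most pairs the TM siCtrl mean is the highest of the 3, as for WARS over WARS2 with 4.69 against 2.45 in DMSO siCtrl, while FARSA over FARS2 and VARS over VARS2 are highest in TM siATF4-3.

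Set directly against each other, the ATF4 siRNAs differed in most of the cytosolic genes. ATF4 RNA itself was higher in TM siATF4-2 than in TM siATF4-3 (1.05 ± 0.16, adjusted p = 6.1e-05), although with only these 2 groups fitted its adjusted p was 0.0541. Of the cytosolic genes, 12 were higher in TM siATF4-2 and 2, DARS and QARS, were lower, where 14.7% of all genes tested were called, 8.53% as higher and 6.20% as lower. GARS (1.08), YARS (0.86), CARS (0.85) and SARS (0.81) had the largest differences. LARS (0.14), the smallest of the 12, lost its call in 12 alternative settings. None of the 16 mitochondrial genes was called, 1 had an unadjusted p under 0.05, DESeq2 and limma with voom called 0 as well, and the differences lay between -0.15 and 0.14.

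A comparison that leaves TM siCtrl out sets the mean of the ATF4 siRNA groups, with tunicamycin, against DMSO siCtrl. The sides differ in both siRNA and tunicamycin, which this comparison cannot separate, and a mean may not hold for each siRNA. Here 8 cytosolic genes were higher and 7 lower, with a median of -0.05, where 62.7% of all genes tested were called, 30.7% as higher and 32.0% as lower. WARS (1.22 ± 0.05, adjusted p = 7.83e-25) and AARS (0.70 ± 0.05, adjusted p = 1.89e-16) were the furthest above DMSO siCtrl. QARS (-0.59) and GARS (-0.53) were the furthest below it. QARS averaged 129 CPM in TM siATF4-2 and 147 CPM in the other ATF4 siRNA group, against 206.5 CPM in DMSO siCtrl. GARS averaged 390 ± 75 CPM in TM siATF4-2, level with 388 ± 27.3 CPM in DMSO siCtrl. The other ATF4 siRNA group averaged 184 ± 22.1 CPM of GARS, so the GARS difference came from that group. In the mitochondrial class 9 genes were lower and 2 higher: IARS2 (-0.65), LARS2 (-0.52) and TARS2 (-0.49) were lowest, and MARS2 (0.47) and SARS2 (0.19) were higher. AIMP1 (0.46) and AIMP2 (0.49) were higher too.

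EPRS and SARS were among the 3 cytosolic genes with the largest falls under each PERK siRNA. In TM siPERK-1 against TM siCtrl, 9 cytosolic genes fell and FARSB rose, where 26.4% of all genes tested were called, 13.1% as higher and 13.3% as lower. In TM siPERK-3 against TM siCtrl, 7 cytosolic genes fell and 3 rose, where 26.8% were called, 13.1% as higher and 13.7% as lower. The cytosolic medians were -0.13 and -0.12, and the mitochondrial medians 0.05 and 0.07. SARS, EPRS, YARS, NARS, AARS, MARS and IARS fell with each siRNA, and CARS and LARS with siPERK-1. With siPERK-3 the falls of AARS, MARS and IARS were each lost in 5 of the 8 fits with 1 library left out, all 3 of them without TM siCtrl replicate 3 or TM siPERK-3 replicate 4 (adjusted p up to 0.166). With siPERK-1 the call was lost without TM siPERK-1 replicate 4 for AARS, CARS and NARS, without TM siCtrl replicate 2 for NARS and LARS, without TM siPERK-1 replicate 3 for LARS, and without TM siCtrl replicate 1 or 3 or TM siPERK-1 replicate 1 for CARS.

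GARS had 879.7, 879.5, 869.8 and 741 CPM in TM siPERK-1 and 858, 875, 900.0 and 737 CPM in TM siPERK-3, against 973, 1034, 1030.0 and 986 CPM in TM siCtrl. All 8 siRNA libraries were lower, and replicate 4 was lowest in each siRNA group. The log2 change (-0.26 ± 0.10, adjusted p = 0.0583 for siPERK-1; -0.26 ± 0.10, adjusted p = 0.0583 for siPERK-3) was not called in edgeR's fit to all 28 libraries. It was called for siPERK-1 and siPERK-3 by DESeq2 (adjusted p = 0.0205 and 0.021), by limma with voom (0.0397 and 0.04) and in edgeR with only the compared groups (0.00042 and 0.000574).

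EPRS had 653, 700.4, 669 and 649 CPM in TM siPERK-1 and 703, 711, 705 and 639 CPM in TM siPERK-3, against 778, 856, 824 and 822 CPM in TM siCtrl. Every siRNA library was below TM siCtrl (-0.30 ± 0.05, adjusted p = 8.88e-06 for siPERK-1; -0.25 ± 0.05, adjusted p = 0.000104 for siPERK-3). SARS had 609, 601, 621 and 578 CPM in TM siPERK-1 and 609, 641, 643 and 573 CPM in TM siPERK-3, against 714, 728, 759 and 738 CPM in TM siCtrl. These groups were separate as well (-0.29 ± 0.06, adjusted p = 0.000188 for siPERK-1; -0.25 ± 0.06, adjusted p = 0.000787 for siPERK-3). IARS had 624, 692, 647 and 619 CPM in TM siPERK-1, against 767, 814, 789 and 797 CPM in TM siCtrl (-0.30 ± 0.04, adjusted p = 2.9e-06). WARS, in contrast, had 666, 692, 715.5 and 647 CPM in TM siPERK-1 and 687, 723, 752.5 and 666 CPM in TM siPERK-3 and was called with neither siRNA (-0.05 and 0.01).

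VARS had 182, 181, 196 and 201 CPM in TM siPERK-3, against 148.5, 138, 172 and 178 CPM in TM siCtrl, without overlap (0.26 ± 0.08, adjusted p = 0.0182). That rise was not called without TM siCtrl replicate 1 (adjusted p = 0.0624), TM siCtrl replicate 2 (adjusted p = 0.0827) or TM siPERK-3 replicate 4 (adjusted p = 0.0662). The FARSB rise with siPERK-1 (0.16 ± 0.06, adjusted p = 0.0498) was lost in 11 of 15 alternative settings, and FARSA (0.25) and FARSB (0.23) rose with siPERK-3. In the mitochondrial class LARS2 rose with each siRNA (0.25 and 0.20), and CARS2, SARS2 and VARS2 with siPERK-3. The SARS2 and VARS2 calls were lost without TM siCtrl replicate 2 or TM siPERK-3 replicate 4, that of SARS2 also without TM siPERK-3 replicate 2 and that of VARS2 without TM siPERK-3 replicate 3. Of the 16 mitochondrial genes 0 fell with either PERK siRNA and 0 of the 3 scaffold genes were called, by edgeR, DESeq2 or limma with voom, and none of these had an unadjusted p under 0.05 in edgeR.

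Replicate 4 had the lowest cytosolic sum in each PERK siRNA group: the 4 sums were 7797, 7973, 7949 and 7418 CPM in TM siPERK-1 and 8072, 8248, 8298 and 7477 CPM in TM siPERK-3. Without it, 6 cytosolic genes fell with siPERK-1 and 4 with siPERK-3. Set directly against each other, the PERK siRNAs differed in FARSA (-0.20 ± 0.05, adjusted p = 0.0203) and IARS (-0.17 ± 0.04, adjusted p = 0.0159), both lower in TM siPERK-1, where 4.73% of all genes tested were called, 2.24% as higher and 2.49% as lower. Those calls are sensitive to single libraries, and between 0 and 2 members were called with 1 library left out. In the partner pairs, 10 of the 16 ratios fell with siPERK-1 (median difference -0.25). With siPERK-3 the median difference was -0.20 with 0 ratios past the adjusted threshold, 7 lower and 1 higher at an unadjusted exact permutation p under 0.05. Ratios at the lowest possible p had an adjusted exact permutation p of 0.0457 with siPERK-1 and 0.0571 with siPERK-3. The counts of called ratios therefore do not show a difference between the PERK siRNAs.

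The mean of the ATF4 siRNA groups was also set against the mean of the PERK siRNA groups, all with tunicamycin. In that comparison 13 cytosolic genes were lower and 5 higher, with a median of -0.45, where 63.9% of all genes tested were called, 31.6% as higher and 32.3% as lower. GARS (-1.65 ± 0.07) and CARS (-1.17 ± 0.05) differed most on the lower side, and FARSB (0.84 ± 0.04) was higher in the ATF4 siRNA groups. Among the mitochondrial genes 5 were higher and 3 lower, led by MARS2 (0.98 ± 0.05).

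The PERK inhibitor GSK2606414 did not lower any cytosolic synthetase beyond the threshold. In TM PERKi siCtrl against TM siCtrl, 7 cytosolic genes rose and 0 fell, whereas 4 mitochondrial genes fell and 0 rose, where 35.7% of all genes tested were called, 18.2% as higher and 17.5% as lower. DESeq2 and limma with voom also gave 0 cytosolic genes that fell and 0 mitochondrial genes that rose, and at an unadjusted p under 0.05 in edgeR there was 1 of each. The medians were 0.10 for the cytosolic and 0.03 for the mitochondrial genes. The fall of FARSA was called without TM siCtrl replicate 2 (-0.15, adjusted p = 0.0397). That of QARS was called without TM siCtrl replicate 4 (-0.17, adjusted p = 0.0118) and with the replicate block (adjusted p = 0.049). Rises were gained as well: GARS with only the compared groups (0.18, adjusted p = 0.000367), and DARS with the replicate block (adjusted p = 0.0312) or without TM PERKi siCtrl replicate 4 (adjusted p = 0.0329).

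WARS had 994, 1007, 1058 and 994 CPM in TM PERKi siCtrl, against 670.2, 689.8, 714 and 735 CPM in TM siCtrl. Every inhibitor library was above the highest TM siCtrl library (0.53 ± 0.05, adjusted p = 1.44e-11). TARS (0.23), AARS (0.21), YARS (0.15), NARS (0.15), HARS (0.13) and IARS (0.13) also rose, and YARS lost its call in 6 alternative settings, IARS in 4 and HARS in 2. MARS2 had 12.8, 12.5, 14 and 13.2 CPM in TM PERKi siCtrl, against 18, 18.4, 19.9 and 19.6 CPM in TM siCtrl, again without overlap (-0.53 ± 0.08, adjusted p = 2.1e-06). LARS2 had 50.3, 50.1, 52.8 and 49.8 CPM in TM PERKi siCtrl, against 63, 64.1, 62.4 and 56.6 CPM in TM siCtrl, all lower (-0.28 ± 0.05, adjusted p = 7.76e-05). IARS2 (-0.20) and TARS2 (-0.17) fell less.

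AIMP1 rose (0.16 ± 0.06, adjusted p = 0.0312), a call lost without any 1 of TM siCtrl replicates 1 and 3 and TM PERKi siCtrl replicates 1, 2 and 3. AIMP2 fell (-0.18 ± 0.06, adjusted p = 0.012), and without TM siCtrl replicate 1 its adjusted p was 0.0844. The cytosolic sums were 9783, 9920, 9760 and 9624 CPM in TM PERKi siCtrl, above every TM siCtrl sum. In the partner pairs the median difference was 0.09, and 0 of 16 ratios passed the adjusted threshold, with 6 higher and 2 lower at an unadjusted exact permutation p under 0.05. Each of these had the lowest possible p, and an adjusted exact permutation p of 0.0571.

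The inhibitor and the PERK siRNAs were then compared directly. Against the mean of the PERK siRNA groups, 13 cytosolic genes were higher in TM PERKi siCtrl and 3 lower, with a median of 0.24, where 51.9% of all genes tested were called, 25.8% as higher and 26.1% as lower. WARS (0.55 ± 0.04) and GARS (0.44 ± 0.08) differed most. In the mitochondrial class 7 genes were lower and YARS2 alone was higher, with a median of -0.14, and MARS2 (-0.58 ± 0.07) and LARS2 (-0.50 ± 0.05) were the lowest. EIF2AK3 RNA averaged 125 ± 4.25 CPM in TM PERKi siCtrl, against 24.6 CPM in TM siPERK-1 and 21.5 CPM in TM siPERK-3.

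Other genes of the same pathways give the setting of these changes. A list of 30 genes known as ATF4 targets, which holds no synthetase, had 29 genes that rose and 1 that fell in TM siCtrl against DMSO siCtrl, led by DDIT3 (3.79), which encodes the factor CHOP, and SLC3A2 (3.42), an amino acid transporter subunit. With siATF4-3, 29 of the 30 fell and 1 rose, and with siATF4-2, 27 fell and 1 rose; CHAC1, a glutathione-degrading enzyme, was lowest in both (-5.81 and -3.72). With siPERK-1 and siPERK-3, 13 and 14 fell and 0 rose, the MTHFD2 gene of mitochondrial folate metabolism by 0.53 with siPERK-1 and the serine synthesis gene PSAT1 by 0.60 with siPERK-3. With the inhibitor 15 rose and 2 fell, with ATF3 at 1.36. The shares of all genes called in these comparisons are those given for the synthetases above. This list was drawn up with earlier results of these data known and is not independent evidence.

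Genes of tRNA export, processing and sensing did not move as a block. Of 26 such genes, 9 rose and 12 fell with tunicamycin, where 34.3% of all genes tested were called higher and 34.7% lower. XPOT, which exports tRNA from the nucleus, rose (1.03), while EIF2AK4, the GCN2 kinase that senses uncharged tRNA, fell (-0.98), as did the RNase P subunit gene POP1 (-0.95). With siATF4-3, 13 of the 26 rose and 8 fell, with XPOT at -1.01, EIF2AK4 at 0.68 and the GCN2 activator gene GCN1L1 at 0.82. With siATF4-2, 12 rose and 7 fell. Of all genes tested, 31.2% were called higher and 30.7% lower with siATF4-3, and 28.4% higher and 27.2% lower with siATF4-2. Of 8 cytosolic elongation genes, 5 rose and 1 fell with tunicamycin, with EEF2, which moves the ribosome along, at 0.63 and EIF5A at -0.64.

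Factors of mitochondrial translation work beside the mitochondrial enzymes. Of 15 tested, 10 fell and 2 rose with tunicamycin, with the elongation factor gene TSFM at -0.61 and the methionyl-tRNA formyltransferase gene MTFMT at -0.42. With siATF4-3, 10 rose and 1 fell, and with siATF4-2, 10 rose and 0 fell. QRSL1, a subunit of the amidotransferase that completes mitochondrial glutaminyl-tRNA, was highest in both (0.70 and 0.59), followed by LRPPRC (0.68 and 0.58), which stabilises mitochondrial messenger RNA. With the inhibitor 1 gene rose and 1 fell, with siPERK-1 4 rose and 2 fell, and with siPERK-3 1 rose and 0 fell. The shares of all genes tested called higher and lower were 34.3% and 34.7% with tunicamycin, 31.2% and 30.7% with siATF4-3, and 28.4% and 27.2% with siATF4-2. They were 18.2% and 17.5% with the inhibitor, 13.1% and 13.3% with siPERK-1, and 13.1% and 13.7% with siPERK-3.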

How the data were processed

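RNA of 28 LNCaP libraries was sequenced after a strand-specific preparation, per the labels' protocols. The authors deposited raw exon counts per gene in 6 tables, in which the TM siCtrl columns recur with identical values. Per the submitters' processing notes, TopHat2 2.1.0, featureCounts 1.5.0-p1, DESeq2 1.10.1 and the build hg19 were used, and whether strand was used in counting is not given in the sources used here. From the deposited counts, edgeR 4.0.16 in R 4.3.3 was run on all 28 libraries as 7 group means, with trimmed-mean scaling, filterByExpr (minimum count 10, minimum total 15) and the robust quasi-likelihood test, for 14314 genes and 11 comparisons. CPM use the scaled library totals, and totals of 10794637 to 17253801 counts a library set the counting precision. 1 unnamed line with 0 counts was left out. Levels per kilobase use the exon length on the primary chromosomes of hg19. The script was tested on simulated data, where it recovered 60.8% of log2 changes of 0.5 and 87.8% of log2 changes of 1. Smaller changes were not simulated, so a gene not called may still have changed.

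The 39 members and the other lists were chosen with earlier results of these data known. Genes named with every library were the 5 cytosolic and 4 mitochondrial genes with the largest changes among those called under tunicamycin, the 3 scaffold genes, and the 3 with the largest changes among those called in each other comparison with TM siCtrl; other genes given with values were chosen after their values were seen. Alternatives were other scaling factors, no filter, DESeq2 1.42.0, limma 3.58.1 with voom, a replicate block, only the compared groups, and 1 library left out. Pair ratios used exact permutation tests in scipy 1.17.1 under Python 3.11.15. Promoter windows are RefSeq's on GRCh38.p14 and were not combined with hg19 coordinates.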

Additional observations from a re-analysis of the deposited data

Results flagged for a closer look

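Within the 273 groups of 4 libraries formed by 39 genes and 7 conditions, 14 held a library far from the other 3, where its gap to the nearest other exceeded the critical share of the whole range for 4 values in Dixon's test. Chance flags about 1 in 20 such groups, or 13.7 of 273. In TM siPERK-3, replicate 4 was lowest for EPRS (639.3 CPM, others 703 to 711 CPM), IARS (682 CPM, others 737 to 747 CPM) and TARS (472 CPM, others 525 to 535 CPM). In TM siPERK-1, replicate 4 was lowest for GARS (741 CPM, others 869.8 to 879.7 CPM) and highest for MARS2 (20.5 CPM, others 19.32 to 19.46 CPM). In the same group replicate 1 was highest for HARS2 (59.4 CPM, others 54.8 to 55.4 CPM) and replicate 2 lowest for SARS2 (27.1 CPM, others 29.95 to 30.33 CPM).

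In TM siATF4-3, replicate 4 was lowest for KARS (304 CPM, others 339 to 346 CPM) and replicate 3 lowest for HARS2 (59.7 CPM, others 63.8 to 64.5 CPM). In TM PERKi siCtrl, replicate 1 was lowest for GARS (1118 CPM, others 1152 to 1156 CPM) and replicate 3 highest for LARS2 (52.8 CPM, others 49.8 to 50.3 CPM). In TM siCtrl, replicate 2 was lowest for SARS2 (25.2 CPM, others 31.1 to 31.5 CPM) and replicate 3 lowest for YARS2 (23.96 CPM, others 26.1 to 26.2 CPM). In DMSO siCtrl, replicate 4 was highest for AARS (627 CPM, others 552 to 561 CPM).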

How the results depend on the processing

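Across the alternatives 7421 values of the members were recomputed: 7161 kept their side of the threshold, 154 lost their call, 106 gained one and 0 called values reversed. The sign changed in 120 recomputed values, all of uncalled members (48 combinations of member and comparison, log2 change at most 0.0785). The counts that moved by over 1.5 times were small ones. The cytosolic genes higher with siPERK-1 numbered 0, against 1, with DESeq2's scaling factors, with no filter, with DESeq2 and with limma and voom. The mitochondrial genes lower with siATF4-2 numbered 2, against 1, with upper-quartile scaling, with DESeq2 and with the replicate block. The main fit did not pair libraries by replicate number, by a rule on the correlations of deviations (0.0336 to 0.218, above 0.1 in 10 of 24 cases). Yet 21 of 24 libraries correlated best with their own number, so the libraries are not free of a part shared by number. Among the recomputed values the replicate block gained 23 calls and lost 0. With the replicate block, 1 cytosolic gene fell with the inhibitor (against 0), 3 mitochondrial genes rose with siPERK-1 (against 1) and 4 members differed between the PERK siRNAs (against 2); no pair ratio was called (0 in all comparisons), since its smallest p is then 0.125. With 1 library left out, the counts ran from 0 to 1 for cytosolic genes higher with siPERK-1, 0 to 1 for cytosolic genes lower with the inhibitor, 4 to 7 for cytosolic genes lower with siPERK-3, 1 to 3 for mitochondrial genes higher with siPERK-1, 2 to 5 for mitochondrial genes higher with siPERK-3, 1 to 2 for mitochondrial genes lower with siATF4-2, 0 to 2 between the PERK siRNAs and 0 to 0 for pair ratios, whose smallest p is then 0.0571. The FARSB call with siPERK-1 was lost without any 1 of the 4 TM siCtrl libraries or TM siPERK-1 replicate 2, 3 or 4; without TM siCtrl replicate 3 the count stayed at 1 because QARS was called (adjusted p = 0.0472). The count of mitochondrial genes higher with siPERK-1 was 2 without TM siPERK-1 replicate 1 and 3 without replicate 2. That with siPERK-3 was 2 without TM siCtrl replicate 2 or TM siPERK-3 replicate 4. That of mitochondrial genes lower with siATF4-2 was 2 without TM siCtrl replicate 1 or TM siATF4-2 replicate 2. The siPERK-1 against siPERK-3 count was 1 without TM siPERK-1 replicate 1 or 2 or TM siPERK-3 replicate 1 or 4, and 0 without TM siPERK-3 replicate 3. The cause of these moves was not tested.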
